A study of Mus musculus with 12 samples.

Results

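The genes described here are 8 members of the poly(ADP-ribose) polymerase (PARP) family, Parp1, Parp2, Parp8, Parp9, Parp10, Parp11, Parp12 and Parp14, together with Dtx3l, whose protein is the partner of PARP9. They were taken by symbol from the deposited tables, so 9 of the 23997 listed genes are covered, and all 9 were among the 10581 genes that reached at least 1 FPKM (fragments scaled to transcript length and library size, a level per length) in at least 3 libraries. RNA-seq was done on bone marrow-derived macrophages (BMDMs), grown from mouse bone marrow in human M-CSF, in 12 libraries. Each of 4 groups held 3 libraries: untreated wild-type (WT) cells, untreated Pim1-/- cells, and both genotypes after LPS at 100 ng/ml for 4 h. LPS, a bacterial cell wall component, is the ligand of TLR4, and the comparison asks how far loss of the kinase Pim1 altered the response to it.

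Mice of both genotypes were C57BL/6 males of 8 to 10 weeks, and in Pim1-/- mice exons I to V of Pim1 were deleted with CRISPR/Cas9, a deletion that is not restricted to macrophages. No source used here says whether libraries of a group came from separate mice or cultures, so the p-values below measure the spread between these libraries, which may be technical. Pim1 itself averaged 22.9 ± 1.80 FPKM in untreated WT cells and 8.73 ± 0.75 in untreated Pim1-/- cells, and 645 ± 17.8 against 219 ± 15.6 after LPS (SD, n = 3 each). The level in Pim1-/- cells was thus 38.1% of WT without treatment and 33.9% after LPS, and whether this signal came from the part of the gene outside the deletion was not tested. All 8 macrophage markers looked at were above 1 FPKM in every group, but each had a lower mean in Pim1-/- cells in both conditions. Their sum was 14241 to 15169 FPKM in untreated Pim1-/- cells and 14249 to 16017 after LPS. In WT cells it was 27723 to 29770 and 28943 to 29499. Lyz2 weighs most in that sum, with means of 26301.5 FPKM in untreated WT cells and 13296.8 in untreated Pim1-/- cells. The size of the difference varied by marker. In untreated WT and Pim1-/- cells Cd68 averaged 1161.39 and 956.006 FPKM, and Csf1r 763.847 and 254.341. Summed markers of erythroid cells, lymphocytes (B, T and NK), granulocytes, mast cells and dendritic cells stayed at or below 2.77 FPKM in every library. Those of stromal cells were 2.56 to 2.95 FPKM in untreated WT cells and 0.770 to 1.05 in untreated Pim1-/- cells. After LPS they were 10.7 to 11.1 FPKM in WT cells and 2.87 to 3.63 in Pim1-/- cells. Of these, Pdgfrb went with LPS from 0.163 to 7.10 FPKM in WT cells and from 0.0718 to 2.16 in Pim1-/- cells. In WT cells Col1a1 went from 0.540 to 0.506 FPKM, Col1a2 from 1.36 to 1.60 and Dcn from 0.706 to 1.69. The part of these differences in the values below was not tested. In bulk RNA, fewer cells of a type and less RNA per cell cannot be told apart.

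PARP enzymes transfer ADP-ribose from NAD to proteins and nucleic acids. PARP1 and PARP2 bind DNA breaks and build long poly(ADP-ribose) chains that recruit repair proteins, whereas PARP8, PARP10, PARP11, PARP12 and PARP14 are classed as mono-ADP-ribosyltransferases, and PARP9 acts with the ubiquitin ligase DTX3L. PARP9, DTX3L, PARP10, PARP11, PARP12 and PARP14 belong to the set of genes that type I interferon, which macrophages release after TLR4 engagement, is known to induce. Those 6 are called the interferon-induced members below, a grouping taken from background knowledge and not from these values.

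In GRCm38, as annotated in GENCODE M21, Parp14, Dtx3l and Parp9 lie together on chromosome 16. Parp14 spans chr16:35832874-35871544 on the minus strand, Dtx3l chr16:35926511-35939151 on the minus strand and Parp9 chr16:35938470-35972605 on the plus strand. Dtx3l and Parp9 face away from each other from a shared start region in which the annotated genes overlap by 682 bases, and 54966 bases separate Parp14 from Dtx3l. The other genes are dispersed: Parp1 at chr1:180568924-180601254 (plus), Parp11 at chr6:127446840-127494261 (plus), Parp12 at chr6:39086410-39118349 (minus), Parp8 at chr13:116854820-117025537 (minus), Parp2 at chr14:50807841-50821301 (plus) and Parp10 at chr15:76231174-76243441 (minus). Parp9 and Dtx3l share 458 exonic bases on opposite strands, which is 9.40% of the exonic bases of Parp9 and 8% of those of Dtx3l. Parp10 shares 205 of its exonic bases with Plec on the same strand. The library kit marked the strand, but the strand setting used in counting is not given in the sources used here, so a small part of these values is uncertain.

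Promoter windows of 300 bases, 250 before to 50 after the RefSeq start, were found for 6 of the 9 genes in a RefSeq table of GRCm38.p6. They are shown for 4 genes: Parp11, the one of the 6 whose window matched an interferon motif, Dtx3l and Parp12, which rose with LPS and whose windows held no match, and Parp1, which fell. The motifs searched on both strands were the core of the interferon-stimulated response element, GAAANNGAAA, and the gamma-activated site, TTCNNNGAA. In Parp11 the capitals mark both matches, which overlap: the first lies on the minus strand and occupies bases -44 to -35 from the start, and the second occupies bases -37 to -29. The windows are chr6:127446590-127446889 (plus), chr16:35938978-35939277 (minus), chr6:39118300-39118599 (minus) and chr1:180568641-180568940 (plus), each written 5′ to 3′ on the strand of its gene.
Parp11: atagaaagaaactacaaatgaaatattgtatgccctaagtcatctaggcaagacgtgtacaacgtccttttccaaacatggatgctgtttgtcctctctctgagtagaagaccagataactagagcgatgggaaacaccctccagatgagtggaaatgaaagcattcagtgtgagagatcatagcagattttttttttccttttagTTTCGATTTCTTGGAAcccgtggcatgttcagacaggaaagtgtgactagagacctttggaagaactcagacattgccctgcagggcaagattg
Dtx3l: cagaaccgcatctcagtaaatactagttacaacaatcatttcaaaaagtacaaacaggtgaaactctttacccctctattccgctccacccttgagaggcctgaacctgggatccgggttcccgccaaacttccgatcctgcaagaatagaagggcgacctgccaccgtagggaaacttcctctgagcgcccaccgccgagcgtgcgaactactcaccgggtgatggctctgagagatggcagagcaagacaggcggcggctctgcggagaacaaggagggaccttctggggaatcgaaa
Parp12: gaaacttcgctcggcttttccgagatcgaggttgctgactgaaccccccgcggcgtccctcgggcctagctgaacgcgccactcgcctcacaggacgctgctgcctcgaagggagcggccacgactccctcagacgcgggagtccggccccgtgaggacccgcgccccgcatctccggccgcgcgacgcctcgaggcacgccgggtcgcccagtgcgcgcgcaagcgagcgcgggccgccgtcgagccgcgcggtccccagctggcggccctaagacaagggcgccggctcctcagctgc
Parp1: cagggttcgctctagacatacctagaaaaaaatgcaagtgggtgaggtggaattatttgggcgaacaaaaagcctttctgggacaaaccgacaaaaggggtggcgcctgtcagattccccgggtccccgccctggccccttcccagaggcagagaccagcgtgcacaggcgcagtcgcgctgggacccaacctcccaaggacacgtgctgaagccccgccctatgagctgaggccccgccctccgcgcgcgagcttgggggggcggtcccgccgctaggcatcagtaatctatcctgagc

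Of 32851 promoter windows in the table, 3.44% held the response element core and 8.30% the gamma-activated site. A second Parp11 window and the windows of Parp2 and Parp8 held neither. GC content was 73.7% in the Parp12 window, with 46 CpG pairs, 62% in Parp1, 54.3% in Dtx3l and 42% in the Parp11 window shown, with 5 CpG pairs, against a median of 52.7% over all windows. A match is only a match of letters, and its absence from these windows says nothing on the factors that bind elsewhere. Parp9, Parp10 and Parp14 are named here without a window.

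In untreated cells the order of the levels was led by Parp1, the main poly(ADP-ribose) polymerase of the nucleus. Its level was 32.3, 33.3 and 31.8 FPKM in the WT libraries and 27.3, 26.7 and 28.5 in the Pim1-/- libraries. In WT cells Parp14 followed with a mean of 18.2 FPKM, then Parp12 (14.9), Parp9 (14.9) and Parp2 (14.2), whose libraries overlapped from each to the next. Dtx3l (10.2), Parp8 (9.51), Parp10 (8.47) and Parp11 (3.88) came last, with Dtx3l and Parp8 overlapping. Without Pim1, Parp14 stood at 6.53 FPKM, behind Parp1 (27.5), Parp2 (12.4), Parp9 (11.1) and Parp12 (8.998). Parp8 (5.05), Parp10 (4.95) and Dtx3l (4.94) overlapped there, and Parp11 was again lowest at 3.35.

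After LPS Parp14 was highest in both genotypes, and Parp1 and Parp2 had moved to the bottom of the order, below Parp11. The order of the other 7 genes in WT cells was the same as before LPS except that Parp10 and Parp8 changed places. In WT cells the means fell in the order Parp14 (582 FPKM), Parp12 (327), Parp9 (263), Dtx3l (132), Parp10 (106), Parp8 (60.0), Parp11 (29.0), Parp1 (11.7) and Parp2 (6.54), with no overlap between neighbours. The order without Pim1 was Parp14 (383), Parp9 (253), Parp12 (172), Dtx3l (103), Parp10 (40.7), Parp8 (38.9), Parp11 (28.0), Parp1 (12.6) and Parp2 (9.50). Parp9 thus ranked above Parp12 in Pim1-/- cells and below it in WT cells, and Parp10 and Parp8 overlapped only without Pim1.

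**Figure D1:**
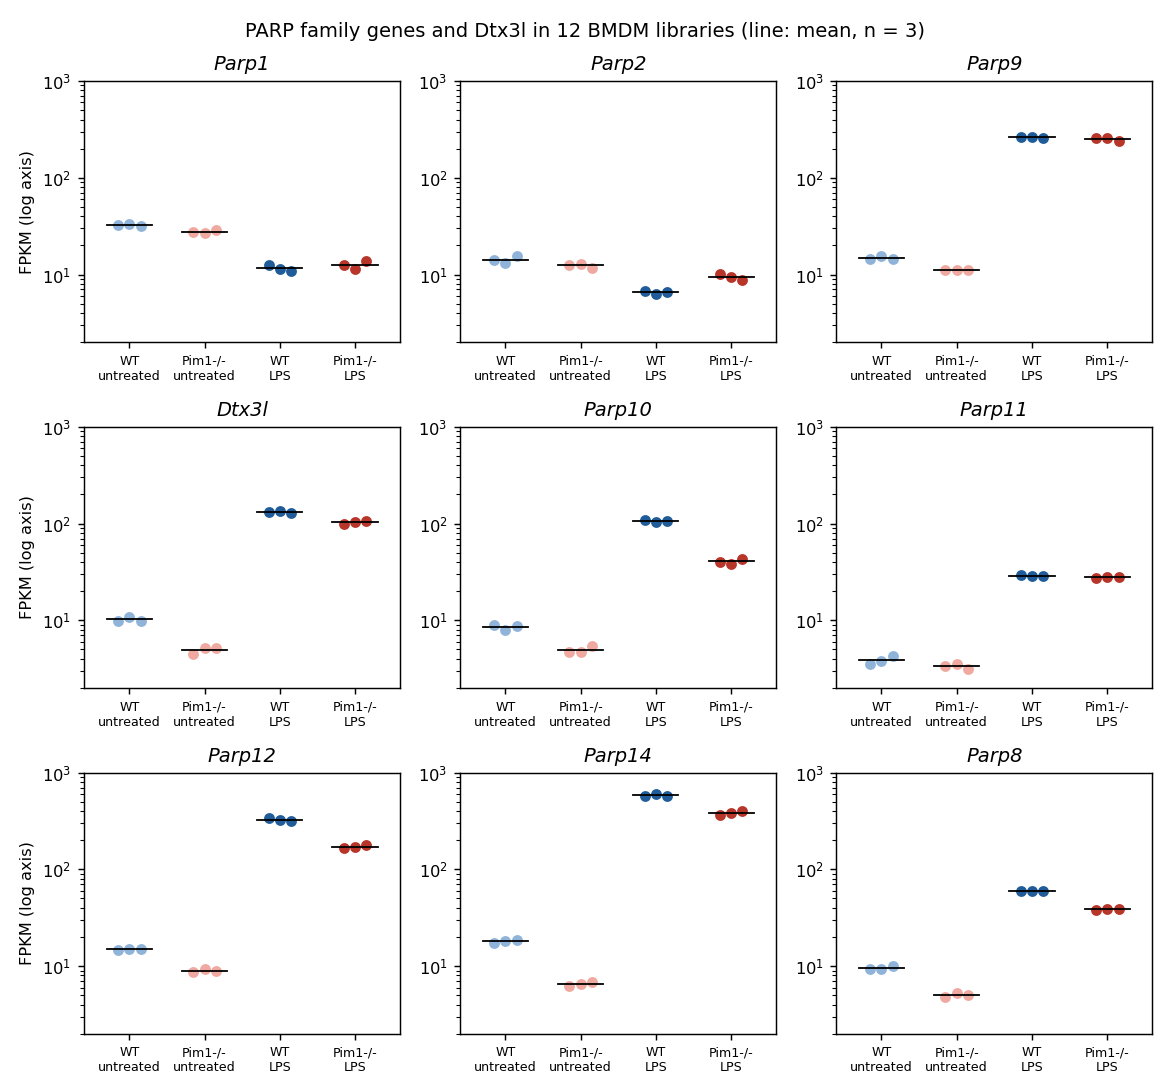
FPKM on a log axis in each of the 12 libraries for the 9 genes, with 1 panel per gene, points for libraries and a line for the mean of 3. After LPS 7 genes stand above their untreated values in both genotypes, while Parp1 falls from 32.5 to 11.7 FPKM in WT cells and Parp2 from 14.2 to 6.54.

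The 9 genes together summed to 126.8 ± 1.85 FPKM in untreated WT cells and 84.8 ± 1.23 in untreated Pim1-/- cells, and to 1517 ± 22.7 and 1041 ± 19.1 after LPS (SD, n = 3 each). Parp1 and Parp2 made up 36.8% ± 0.38 of that sum in untreated WT cells and 47.1% ± 0.75 in untreated Pim1-/- cells. After LPS their share was 1.20% ± 0.06 and 2.12% ± 0.11. Parp14 alone took 14.4% and 7.69% of the sum without treatment and 38.4% and 36.8% after LPS, in WT and Pim1-/- cells respectively. Parp14 RNA was therefore 0.56 times that of Parp1 in untreated WT cells and 50.1 times after LPS, and the ratio in Pim1-/- cells went from 0.24 to 30.6.

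**Figure D2:**
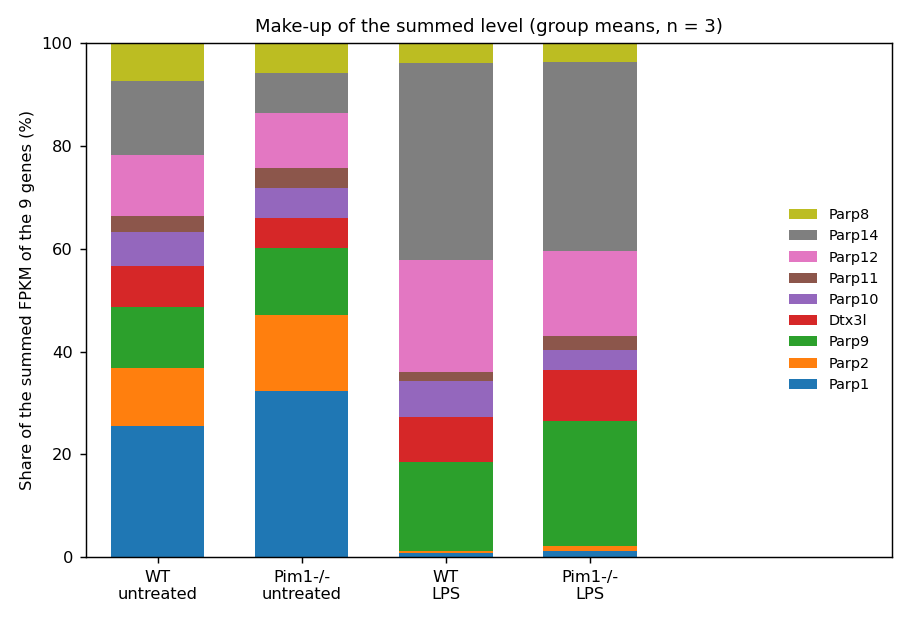
Stacked bars of each gene's share, in percent, of the summed FPKM of the 9 genes, from the group means of 3 libraries. Parp1 and Parp2 fill 36.8% and 47.1% of the bars of untreated WT and Pim1-/- cells and 1.20% and 2.12% of those after LPS.

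The first comparison asks how LPS altered these genes in each genotype. A gene was counted as changed past the 2-fold rule when limma on log2(FPKM + 1) gave more than 2-fold, p under 0.05 and a false discovery rate (FDR) under 0.1, and past the FDR rule when the FDR was under 0.05 at any fold. In WT cells 7 of the 9 genes rose past the 2-fold rule, against 20.1% of all genes tested, and 2 fell, against 14.7%. In Pim1-/- cells the same 7 rose, against 14.6% of all genes, and 1 fell, against 10.4%. The median change over the 9 genes was 3.50 on the log2 scale in WT cells and 2.81 in Pim1-/- cells, beside 0.0015 and -0.013 over all genes.

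Parp1 fell by 1.41 ± 0.06 on the log2 scale in WT cells (SE; limma, Benjamini-Hochberg adjusted p = 2.37e-12), to 12.6, 11.4 and 10.9 FPKM. Without Pim1 it fell by 1.07 ± 0.06 (limma adjusted p = 1.11e-10), to 12.6, 11.5 and 13.6 FPKM. Both genotypes thus ended at overlapping levels from starting levels that did not overlap. Parp2, the related DNA-break sensor, went from 14.1, 13.2 and 15.4 FPKM to 6.78, 6.25 and 6.60 in WT cells. That was a fall by 1.01 ± 0.06 (limma adjusted p = 2.04e-10), close to the 2-fold limit, and without replicate 3 of untreated or replicate 2 of LPS-treated WT cells it was under that limit (it fell by 0.96 at the least). Without Pim1 it went from 12.7, 12.7 and 11.8 FPKM to 10.2, 9.49 and 8.80, a fall by 0.35 ± 0.06 (limma adjusted p = 6.66e-05) that passed the FDR rule only. The groups of untreated and LPS-treated libraries did not overlap for Parp1 or Parp2 in either genotype.

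Parp9 rose 17.7-fold in WT cells, from 14.5, 15.6 and 14.6 FPKM to 266, 265 and 257, and 22.9-fold in Pim1-/- cells, from 11.1, 11.01 and 11.1 to 258, 261 and 241. Dtx3l, the E3 ligase encoded from the same start region, rose 12.9-fold in WT cells, from 9.85, 10.9 and 9.93 FPKM to 131, 135 and 129. In Pim1-/- cells it rose 20.8-fold, from 4.54, 5.11 and 5.18 FPKM to 98.0, 105 and 106. On the log2(FPKM + 1) scale these changes were 4.05 ± 0.04 and 4.39 ± 0.04 for Parp9 and 3.57 ± 0.05 and 4.13 ± 0.05 for Dtx3l (SE; WT, then Pim1-/-), with limma adjusted p between 5.43e-19 and 1.54e-20 in Pim1-/- cells.

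Parp14, a macrodomain protein known as a cofactor of STAT6, rose most of the 9 genes in both genotypes. In WT cells it went from 17.5, 18.3 and 18.8 FPKM to 576, 597 and 573, which is 31.9-fold. Pim1-/- libraries went from 6.25, 6.53 and 6.80 FPKM to 368, 382 and 400.0, which is 58.7-fold. The starting level was low and the end level below WT in all 3 Pim1-/- libraries, yet the rise was steeper, with log2 changes of 5.67 ± 0.04 against 4.92 ± 0.04 (SE; limma adjusted p = 1.60e-21 and 7.08e-21).

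Parp12, a CCCH zinc-finger protein with antiviral activity, was second in the size of its rise in WT cells, at 21.9-fold, from 14.7, 15.1 and 14.9 FPKM to 338, 326 and 318. In Pim1-/- cells it rose 19.1-fold, from 8.71, 9.38 and 8.90 FPKM to 167, 172 and 177. Parp10, a mono-ADP-ribosyltransferase, rose 12.5-fold in WT cells, from 8.89, 7.86 and 8.65 FPKM to 108, 103 and 107. Its rise in Pim1-/- cells was 8.23-fold, from 4.71, 4.75 and 5.37 FPKM to 40.2, 38.6 and 43.4. The changes on the log2 scale were 4.37 and 4.11 for Parp12 and 3.50 and 2.81 for Parp10, so both rose less without Pim1, although for Parp12 the difference turned with quantile normalization (0.088).

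Parp11, the least abundant interferon-induced member and the one with the motif matches shown above, rose 7.48-fold in WT cells and 8.37-fold in Pim1-/- cells. Its values went from 3.56, 3.83 and 4.26 FPKM to 29.3, 28.9 and 28.9 in WT cells and from 3.35, 3.53 and 3.17 to 27.6, 28.3 and 28.2 in Pim1-/- cells. Parp8, a family member of little known function, rose as well. It went from 9.26, 9.33 and 9.94 FPKM to 60.1, 59.4 and 60.3 in WT cells (6.30-fold) and from 4.85, 5.27 and 5.02 to 38.1, 39.2 and 39.4 in Pim1-/- cells (7.71-fold). The changes on the log2 scale were 2.54 for Parp8 and 2.62 for Parp11 in WT cells, the smallest rises of the 7, and 2.72 and 2.74 in Pim1-/- cells, where that of Parp10 was 2.81.

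**Figure D3:**
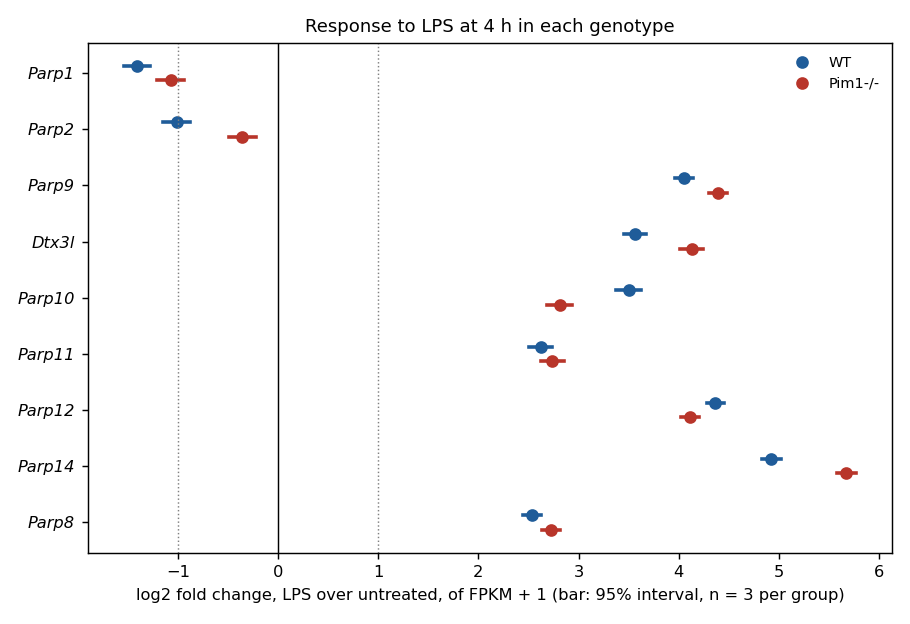
The log2 fold change of FPKM + 1 by LPS for the 9 genes in WT and Pim1-/- cells, with 95% intervals from limma and dotted lines at 2-fold. Parp1 and Parp2 lie left of 0, the other 7 genes between 2.54 and 5.67, and Parp14 is farthest right.

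The FPKM sum of a library was 467484 to 489710 in untreated WT cells and 837585 to 849323 after LPS, and 452511 to 472138 and 713307 to 743912 in Pim1-/- cells. When every library was scaled to the same sum, an alternative added after the data were seen, the median of all genes moved to -0.67 for LPS in WT cells and -0.58 in Pim1-/- cells. Under that scaling Parp14 still rose by 4.13 and 5.06 on the log2 scale and Parp8 by 1.76 and 2.12, and Parp1 fell by 2.17 and 1.70. Parp2 fell by 1.73 and 0.97. No gene of the 9 turned its direction under LPS in any setting tried. Of 12 reference genes, Actb was the one past the 2-fold rule between genotypes after LPS (-1.44), and the median of the 12 was 0.10.

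The comparison of genotypes without treatment asks whether these genes differed before any stimulus. All 9 were lower in Pim1-/- cells past the FDR rule, where 42.0% of all genes were lower, and for all 9 the Pim1-/- and WT libraries did not overlap, against 44.2% of all genes not overlapping in that direction. Past the 2-fold rule 1 of the 9, Parp14, was lower, against 3.37% of all genes. The median over the 9 genes was -0.67 on the log2 scale, beside -0.053 over all genes.

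The level of Parp14 in untreated Pim1-/- cells was 35.8% of that in WT cells (log2 difference -1.35 ± 0.04, SE, limma adjusted p = 4.05e-13). Dtx3l stood at 48.4% of WT, with a log2 difference of -0.92 ± 0.05 on FPKM + 1 (limma adjusted p = 4.21e-10), and its partner Parp9 at 74.5% (-0.39 ± 0.04, limma adjusted p = 5.40e-07). Parp8 was at 53.1% of WT, Parp10 at 58.4% and Parp12 at 60.3%. Their log2 differences were -0.80 ± 0.04, -0.67 ± 0.06 and -0.67 ± 0.04 (SE; limma adjusted p = 1.93e-10, 5.33e-08 and 8.57e-10). Smaller differences were found for Parp11 at 86.3% of WT, Parp2 at 87.2% and Parp1 at 84.7%, with log2 differences of -0.16 ± 0.05, -0.18 ± 0.06 and -0.23 ± 0.06 (limma adjusted p = 0.0118, 0.0153 and 0.00294). Parp2 and Parp11 no longer passed the FDR rule when replicate 3 of untreated WT cells was left out (-0.13 and -0.11), nor when replicate 3 of untreated Pim1-/- cells was (-0.15 and -0.13), nor with equal library sums (-0.13 for each), where 7 of the 9 passed.

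In LPS-treated cells, past the FDR rule, 5 genes were lower in Pim1-/- cells (Parp10, Parp12, Parp14, Parp8 and Dtx3l), against 41.7% of all genes, and 1 was higher (Parp2), against 35.7%. The other 3, Parp1, Parp9 and Parp11, did not pass. The 2-fold rule was met by 1 gene, Parp10, which was lower, against 5.15% of all genes. Libraries of the genotypes did not overlap for 6 genes that were lower, against 41.8% of all genes, and 1 that was higher, against 35.6%. The median over the 9 was -0.35 on the log2 scale, beside -0.033 over all genes.

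Parp10 reached 106 ± 2.88 FPKM in WT cells and 40.7 ± 2.44 in Pim1-/- cells (SD, n = 3), a log2 difference of -1.36 ± 0.06 (SE; limma adjusted p = 1.08e-11). Parp12 reached 327 ± 10.1 FPKM against 172 ± 4.82, or 52.5% of WT (-0.93 ± 0.04, limma adjusted p = 1.67e-11). Parp14 at 65.9% and Parp8 at 64.9% of WT differed by -0.60 ± 0.04 and -0.61 ± 0.04 (limma adjusted p = 6.29e-09 and 3.82e-09). Dtx3l was at 78.1% of WT (-0.35 ± 0.05, limma adjusted p = 1.81e-05).

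Parp9 was 263 ± 4.69 FPKM in WT cells and 253 ± 10.4 in Pim1-/- cells (SD, n = 3), and its log2 difference of -0.053 had a 95% interval of -0.14 to 0.037 (limma adjusted p = 0.262). For Parp11, at 29.0 ± 0.25 and 28.0 ± 0.35 FPKM, the 3 Pim1-/- libraries all lay below the 3 WT libraries, but the interval of -0.16 to 0.065 included 0 (limma adjusted p = 0.413). Parp1 differed by 0.10, with an interval of -0.030 to 0.23 (limma adjusted p = 0.146), and it passed the FDR rule at 0.16 without replicate 1 of LPS-treated WT cells or without replicate 2 of LPS-treated Pim1-/- cells. Parp2 was at 145% of its WT level, with a log2 difference of 0.48 ± 0.06 (limma adjusted p = 4.32e-06). The directions of Parp9 and Parp11 depended on the scaling, being 0.22 and 0.13 with quantile normalization and 0.15 for each with equal library sums, all past the FDR rule. Parp1 also passed under these scalings, at 0.15 and 0.28. Quantile normalization also brought Dtx3l to -0.072, short of the rule. Parp10, Parp12, Parp14 and Parp8 stayed lower in Pim1-/- cells under each setting tried, with log2 differences that ranged from -1.41 to -1.02 for Parp10, -0.95 to -0.66 for Parp12, -0.63 to -0.27 for Parp14 and -0.62 to -0.33 for Parp8.

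**Figure D4:**
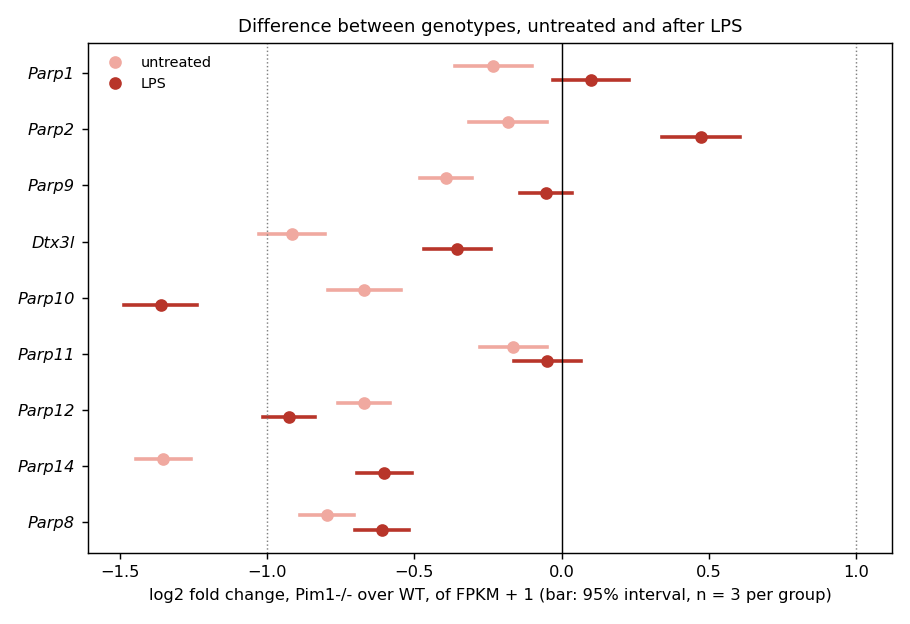
The log2 fold change of FPKM + 1 between Pim1-/- and WT cells for the 9 genes, untreated and after LPS, with 95% intervals from limma and dotted lines at 2-fold. All 9 untreated points lie below 0, Parp10 moves from -0.67 to -1.36 after LPS, and Parp14 moves the other way, from -1.35 to -0.60.

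Whether the response itself differed between genotypes was tested with the interaction of genotype and LPS. The response in Pim1-/- cells minus that in WT cells passed the FDR rule upward for 6 genes, against 29.6% of all genes, and downward for 2, against 33.3%. None of the 9 passed the 2-fold rule, which 2.24% of all genes passed upward and 4.43% downward, while at an unadjusted p under 0.05 the same 8 genes passed. Parp14 gave the highest value, 0.75 ± 0.06 (SE, log2; limma adjusted p = 7.24e-08), followed by Parp2 at 0.66 ± 0.09 and Dtx3l at 0.56 ± 0.07. Parp10 gave -0.69 ± 0.08 (limma adjusted p = 3.28e-06) and Parp12 -0.26 ± 0.06 (limma adjusted p = 0.00135), which turned to 0.088 with quantile normalization. Parp11 gave 0.12, with an interval of -0.046 to 0.28, and passed the FDR rule with quantile normalization (0.28) and with equal library sums (0.27), which brought the genes higher to 7. These values share their libraries with the comparisons above and are not further evidence for them.

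Parp9 and Dtx3l, which start from the same region and whose proteins bind each other, did not keep a fixed ratio. Parp9 RNA exceeded Dtx3l RNA, per length, 1.44 to 1.47 times in the untreated WT libraries and 2.15 to 2.45 times in the untreated Pim1-/- libraries. After LPS the ratio was 1.96 to 2.04 in WT cells and 2.28 to 2.63 in Pim1-/- cells. The genotypes did not overlap in either condition (exact permutation test, two-sided, p = 0.1 in both, the smallest that 3 against 3 libraries allow). Between untreated and LPS-treated libraries the ratio did not overlap in WT cells (exact permutation p = 0.1) but did in Pim1-/- cells (exact permutation p = 0.2). The exons that both genes share on opposite strands are contained in these values.

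Parp12 and Parp9 stood at a mean ratio of 1.004 in WT and 0.81 in Pim1-/- libraries without treatment, and of 1.25 and 0.68 after LPS. The ratio was thus higher after LPS in WT cells and lower after LPS in Pim1-/- cells. The exact permutation p was 0.1 in each of the 4 comparisons of the ratio. The Parp1 to Parp2 ratio was 2.29 and 2.22 in untreated WT and Pim1-/- cells (exact permutation p = 0.7), and after LPS 1.78 and 1.33 (exact permutation p = 0.1). In all, 12 such comparisons of ratios were made, and none can pass an adjusted threshold of 0.05 in this design.

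The neighbourhood on chromosome 16 was examined with the 3 nearest tested protein-coding genes on each side of the Parp14, Dtx3l and Parp9 locus. Of these 6 genes, 1 rose past the 2-fold rule, Dirc2. That rule was passed upward by 20.1% of all genes in WT cells and 14.6% in Pim1-/- cells. Dirc2 went from 6.31 to 28.1 FPKM in WT cells and from 4.39 to 28.8 in Pim1-/- cells (log2 change 1.99 and 2.47). Its untreated level was lower in Pim1-/- cells (-0.44, limma adjusted p = 2.79e-07), and after LPS the difference was 0.036 (limma adjusted p = 0.469). Pdia5, Hspbap1, Kpna1, Wdr5b and Fam162a did not pass the 2-fold rule on log2(FPKM + 1), with values from -0.88 for Wdr5b to 0.89 for Kpna1 in WT cells. That scale understates low genes, and by mean FPKM Wdr5b went from 3.20 to 1.30 in WT cells and Hspbap1 from 0.845 to 1.92 in WT cells and from 0.684 to 1.91 in Pim1-/- cells.

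**Figure D5:**
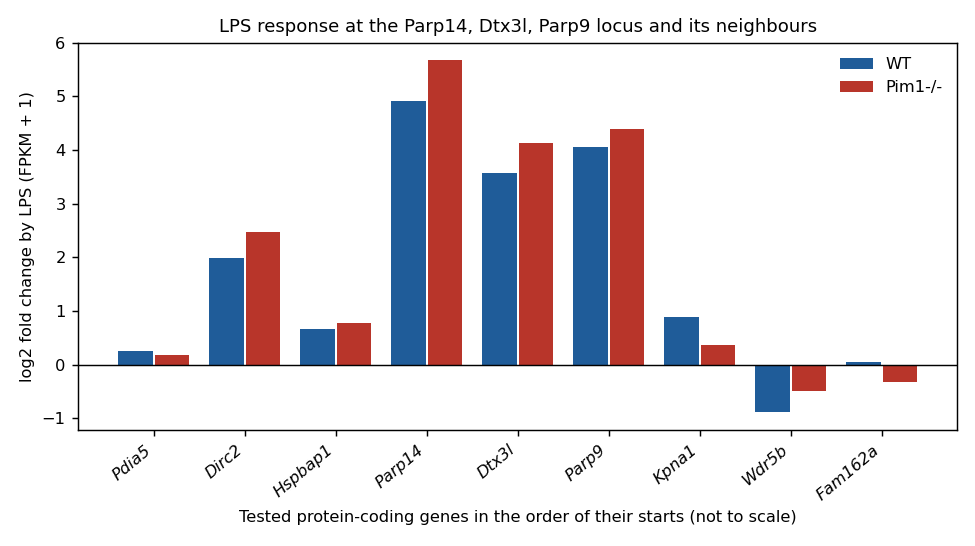
Bars of the log2 fold change of FPKM + 1 by LPS in WT and Pim1-/- cells for Parp14, Dtx3l, Parp9 and the 3 nearest tested protein-coding genes on each side, in chromosomal order and not to scale. The 3 locus genes lie between 3.57 and 5.67, Dirc2 at 1.99 and 2.47, and the other 5 neighbours between -0.88 and 0.89.

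The genes whose 4 group means were most like those of Parp14, by the root-mean-square difference of log2(FPKM + 1) after each gene was centred, were Slfn8 (0.065), Ifi203 (0.071), Gadd45b (0.12), Irf1 (0.13) and Slfn5 (0.14). Slfn8 went from 8.96 to 335 FPKM in WT cells and from 3.33 to 206 in Pim1-/- cells. Parp12 was 80th in this order, Parp9 109th and Dtx3l 134th of the genes tested. Nearest to Parp1 were Map3k4 (0.015), Ogfod2 (0.023), Pcyox1 (0.026), Mr1 (0.028) and Mast1 (0.029), and Parp2 was 1279th. The 4 points behind each likeness are group means of the same libraries.

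Among 8 further PARP genes, all tested, 4 rose with LPS past the 2-fold rule in WT cells, against 20.1% of all genes, and 4 in Pim1-/- cells, against 14.6%. They were Tiparp, Zc3hav1, Parp3 and Parp4 in both genotypes, and none of the 8 fell past that rule. The low gene Parp16, whose change this scale understates, fell by 0.93 in WT cells and 0.52 in Pim1-/- cells. By mean FPKM it went from 1.49 to 0.304 and from 1.13 to 0.487. Tiparp (PARP7), a target of the aryl hydrocarbon receptor, went from 6.38 to 108 FPKM in WT cells and from 7.13 to 56.0 in Pim1-/- cells, and its response was the one of the list that differed past the 2-fold rule (-1.07 ± 0.10, limma adjusted p = 3.56e-09). Zc3hav1 (ZAP), which binds viral RNA, went from 19.2 to 148 FPKM and from 15.3 to 93.8. After LPS 5 of the 8 were lower in Pim1-/- cells past the FDR rule and 1 higher, beside 41.7% and 35.7% of all genes, led by Tiparp (-0.93) and Parp4 (-0.84). The list's median was -0.28, beside -0.033 over all genes.

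Of the 4 other Deltex genes, ubiquitin ligases related to DTX3L, 3 were tested. Dtx2 rose from 4.59 to 38.9 FPKM in WT cells and from 3.76 to 13.8 in Pim1-/- cells, and was lower in Pim1-/- cells after LPS (-1.43, limma adjusted p = 1.42e-10). Dtx3 fell with LPS in WT cells (-1.12) and was lower in untreated Pim1-/- cells (-1.10). Dtx4 differed by 0.53 after LPS.

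NAD is the substrate of those PARP proteins that transfer ADP-ribose, and 11 of 14 genes of NAD supply and use were tested. In WT cells 3 of the 11, Nampt, Cd38 and Bst1, rose past the 2-fold rule, against 20.1% of all genes. Nmrk1 and Nmnat3 fell past it, against 14.7%. After LPS 1 of the 11 was lower in Pim1-/- cells past that rule, against 5.15% of all genes. Nampt, the rate-limiting enzyme of NAD salvage, went from 36.8 to 366 FPKM in WT cells and from 33.5 to 259 in Pim1-/- cells. Cd38, which breaks down NAD, went from 0.0090 to 5.69 FPKM in WT cells and from 0.0056 to 0.607 in Pim1-/- cells, and was the gene past the rule between genotypes (-2.06, limma adjusted p = 2.16e-13).

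Of 11 genes that remove or read ADP-ribose or assist its transfer, 9 were tested. After LPS Aplf, a reader of poly(ADP-ribose) at breaks, was the one past the 2-fold rule between genotypes. It was higher, at 0.268 FPKM in WT cells and 1.67 in Pim1-/- cells (1.07), beside 371 of the 10581 genes tested. Chd1l, a chromatin remodeller recruited by poly(ADP-ribose), differed by 0.99. Hpf1, listed as 2700029M09Rik and needed by PARP1 for modification of serine, was at 13.8 FPKM in untreated WT cells and 31.7 in untreated Pim1-/- cells (1.14).

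Of 9 single-strand break repair partners of PARP1 and PARP2, 4 after LPS were higher and 2 lower in Pim1-/- cells past the FDR rule, beside 35.7% and 41.7% of all genes, with Apex1 (1.11) and Tdp1 (0.99) showing the largest differences among the 9. Without treatment Timeless (1.86), Fen1 (1.64) and Apex1 (1.02) were higher past the 2-fold rule, beside 466 of the 10581 genes tested. Parp1 and Parp2 were lower past the FDR rule only. A list of 18 proliferation genes was higher in Pim1-/- cells for 18 of 18 genes past the 2-fold rule without treatment, beside 466 of the 10581 genes tested. After LPS 16 of the 18 were higher past it, beside 371 of the 10581. The summed level of this list was 165.8 to 181.3 FPKM in untreated WT cells and 1030 to 1117 in untreated Pim1-/- cells, and 382 to 387 and 769.7 to 848 after LPS. Pcna weighs most in that sum, with means from 110 to 313 FPKM with LPS in WT cells. Past the 2-fold rule, LPS in WT cells lowered 6 of the 18, against 14.7% of all genes, and raised 2 (Mki67 and Pcna), against 20.1%. The median log2 change of the list there was -0.68. In Pim1-/- cells LPS lowered 11 of the 18 past that rule, against 10.4% of all genes, and raised 0, against 14.6%. The median of the list was -1.12 in those cells. The part of this list in the differences of Parp1 and Parp2 was not tested.

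Of 10 genes of type I interferon signalling, 4 were lower in Pim1-/- cells past the 2-fold rule after LPS, beside 5.15% of all genes: Jak1 (-1.30), Ifnar1 (-1.26), Irf7 (-1.05) and Stat2 (-1.04). Past the FDR rule 7 were lower and 1 higher, beside 41.7% and 35.7% of all genes. The one that was higher was Ifnb1, the interferon-beta gene, which was listed at 0 in all untreated libraries and reached 8.50 ± 0.91 FPKM in WT cells and 15.5 ± 1.27 in Pim1-/- cells (0.80, limma adjusted p = 3.86e-08). That is the other direction from the study's own assays, which reported less interferon-beta RNA by RT-qPCR and less protein by ELISA in LPS-treated Pim1-/- BMDMs. The measures were unlike, since the ELISA used supernatants taken later than the 4 h of LPS here. The RT-qPCR covered a set of times and was normalized to beta-actin, whose gene Actb differed by -1.44 between genotypes after LPS in these libraries. The reason for the difference from those assays was not tested. Without treatment 8 of the 10 were lower past the FDR rule, beside 42.0% of all genes. Irf7 (-1.71) and Stat2 (-1.06) were lower past the 2-fold rule, beside 3.37%. The part of these signalling genes in the PARP values was not tested.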

How the data were processed

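RNA-seq was done in 12 libraries of mouse BMDMs. Per the submitters' processing notes, bcl2fastq 2.20.0.422, cutadapt 1.18, TopHat2 2.0.13 and Cuffdiff 2.2.1 were used with mm10, whereas the methods name rat rn5. Mouse symbols of GENCODE M21 covered 22694 of the 23997 names. The deposited values carry no unit and were read as FPKM, as the authors' Cuffdiff writes it. Library normalization and strand setting: not given in the sources used here. FPKM holds no counts. Low values of long genes fell on whole multiples of 1 fragment's value (64.8% to 77.2% of values per library within 0.05 of a multiple). From that step and the longest coding transcript, roughly 230 (Parp2) to 96900 (Parp14) fragments lay behind a value, and 1 fragment was worth more FPKM after LPS.

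The 10581 genes that reached 1 FPKM in 3 or more libraries were fitted on log2(FPKM + 1) with limma 3.58.1 in R 4.3.3, as 4 group means with a mean-variance trend, and p-values were adjusted by Benjamini-Hochberg over all genes tested. A fold change on this scale understates that of low genes. Plain fold changes and percentages are ratios of mean FPKM. Ratios of genes were compared by exact permutation tests with scipy 1.17.1. The fit was tested on simulated data, with noise drawn independently for each library. That cannot show whether the p-values hold where libraries correlate. The Cuffdiff test of the study needs the reads and was not rerun. Replicate numbers were checked as pairs by the correlation of same-numbered deviations. Over genes averaging 10 FPKM or more not every pair exceeded 0.1 in any comparison, and over the 3646 genes at 10 FPKM or more in every library every pair did in untreated cells (0.33 to 0.46) and for LPS in Pim1-/- cells (0.43 to 0.68), but not after LPS (lowest 0.02) or for LPS in WT cells (lowest -0.10).

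Named from each list were the 2 genes with the largest change in a comparison described and genes past the 2-fold rule among counts of 5 or fewer. The genes and lists were chosen with earlier results of these data known. Alternatives were another pseudocount (0.1), no filter, a filter of 5 FPKM, median-ratio, quantile and equal-sum scaling, fits limited to the compared groups, a replicate block, no trend and leaving out each library.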

Additional observations from a re-analysis of the deposited data

Results flagged for a closer look

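For 8 of the 9 genes the LPS response differed between genotypes by the interaction term of limma (Benjamini-Hochberg FDR under 0.05), a rule that 29.6% of all genes tested passed upward and 33.3% downward. Response in Pim1-/- cells minus response in WT cells was 0.33 for Parp1, 0.66 for Parp2, 0.34 for Parp9, 0.56 for Dtx3l, 0.75 for Parp14 and 0.19 for Parp8 on the log2 scale. It was -0.69 for Parp10 and -0.26 for Parp12. The first 2 of these genes fell with LPS, so a positive value there means a smaller fall. Parp14, Dtx3l and Parp9 started lower in Pim1-/- cells and rose more steeply, and Parp10 and Parp12 started lower and rose less. With quantile normalization the value of Parp12 turned to 0.088, and with equal library sums it was -0.091 and no longer passed.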

How the results depend on the processing

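Of 441 values under other settings, 428 kept their direction and their side of the threshold, and of 324 recomputed without 1 library, 318 did. Among the other settings only the pseudocount and the scalings alter the log2 difference itself, so the direction could not turn under the rest. With the FDR limit of 0.1 the same fit was read again, and a call could be gained but not lost. The 428 are therefore in part fixed by the choice of settings. The scaling of the libraries made most of the difference. The number of the 9 genes higher in Pim1-/- cells after LPS past the FDR rule went from 1 to 4 with quantile normalization and to 4 with equal library sums, and ranged from 1 to 2 when 1 library was left out, since Parp1 passed without replicate 1 of LPS-treated WT cells or replicate 2 of LPS-treated Pim1-/- cells (0.16 each). Parp9 turned to 0.22 and 0.15 and Parp11 to 0.13 and 0.15 under those 2 scalings. In the difference in response, Parp12 turned to 0.088 with quantile normalization, the count of genes lower past the FDR rule went from 2 to 1 under both scalings, and the count higher past the 2-fold rule from 0 to 1 with quantile normalization. The count lower past the 2-fold rule in untreated cells went from 1 to 2 with a pseudocount of 0.1 and with quantile normalization. For LPS in WT cells the count that fell past the 2-fold rule went from 2 to 1 with median-ratio scaling, and ranged from 1 to 2 when 1 library was left out (1 without replicate 3 of untreated WT cells or replicate 2 of LPS-treated WT cells), through Parp2. With the replicate block 1 gene was lower past the 2-fold rule and 5 past the FDR rule after LPS and 9 past the FDR rule without treatment (7 with equal library sums), and the block changed no call of the 9 genes. The cause of these shifts was not tested. Depth is known only from the estimate, and the FPKM values carry a larger factor per fragment after LPS.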
